A study of Mus musculus with 39 samples.

Results

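The genes described here encode 10 integrin subunits, out of 55487 gene identifiers in the deposited table: the alpha subunits Itgam, Itgax, Itgal, Itga4, Itga6, Itga9 and Itgav, and the beta subunits Itgb1, Itgb2 and Itgb5. They were taken by symbol, and all 10 passed the filter on low counts that left 13420 genes tested. Integrins are surface receptors made of 1 alpha and 1 beta subunit, which bind extracellular matrix or proteins on other cells and connect them to the actin cytoskeleton. In microglia, the resident macrophages of the brain, Itgam (CD11b) pairs with Itgb2 (CD18) to form complement receptor 3, which takes up complement-coated material, and Itgav pairs with beta subunits such as Itgb5 to form receptors for arginine-glycine-aspartate ligands and for latent transforming growth factor beta. Itgal (CD11a, the alpha chain of LFA-1) and Itga4 (of VLA-4) are best known from leukocytes that adhere to vessel walls.

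RNA came from striatal microglia of male mice, 8 to 10 weeks old, that had received lipopolysaccharide (LPS, a bacterial cell wall component, 4500 endotoxin units per gram, into the peritoneum) or saline (SAL) 18 hours earlier. Group names join a prenatal term (MIA, maternal immune activation, or CON, control), a second term (PLX or CON, which the labels do not define) and the injection. The 37 libraries used were 6 of MIA_PLX_LPS, 3 of MIA_PLX_SAL, 6 of CON_PLX_LPS, 4 of CON_PLX_SAL, 6 of MIA_CON_LPS, 4 of MIA_CON_SAL, 4 of CON_CON_LPS and 4 of CON_CON_SAL. The sort kept live CD11b+ P2RY12+ cells with low CD45, so CD11b, the protein product of Itgam, was selected for in every group, and the level of Itgam is not independent of that gate. The labels do not say whether replicates are separate animals, and p-values then measure only the spread between these libraries, which may be technical.

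Library totals ran from 1510020 to 5746239 counts. Transcripts of P2ry12, whose protein was also in the gate, fell with LPS in all 4 arms, at log2 changes of -3.10 in MIA_PLX, -3.25 in CON_PLX, -2.19 in MIA_CON and -3.08 in CON_CON, each with an edgeR adjusted p of at most 6.98e-06, and the summed level of 12 microglial markers ran from 6081 to 15796 CPM (each library's counts scaled to a common total, with TMM factors) over the LPS libraries, against 17095 to 21000.1 CPM over the saline libraries. The 8 monocyte markers summed to 25.4 to 643 CPM in LPS libraries, against 4.39 to 21.9 CPM in saline libraries, and the 8 neutrophil markers to 3.12 to 136 CPM, against 0 to 113 CPM. The neutrophil sum had a median of 39.9 CPM over the LPS libraries, against 0.439 CPM over the saline libraries. Its 113 CPM was in CON_PLX_SAL, where the median was 1.88 CPM. Of 6 neutrophil markers tested, 2 rose in MIA_PLX, 1 in CON_PLX, 5 in MIA_CON and 3 in CON_CON at an edgeR adjusted p under 0.05, and 0 fell. That rule put 11.8%, 17.5%, 14.5% and 13.7% of all genes tested higher in those arms. The part of monocytes and neutrophils in the results below was not tested, and in bulk RNA fewer cells of a type cannot be told apart from less RNA per cell. The counts of MIA_CON_LPS replicate 6 (used) nearly matched those of the library labelled MIA_PLX_SAL replicate 1 (marked for exclusion in its title): over 9113 genes their chi-square was 1.58 per degree of freedom, where no other of the 741 library pairs was under 2.58. Without MIA_CON_LPS replicate 6 no call of the 10 genes in MIA_CON changed. Replicate 1 of CON_PLX_LPS, MIA_CON_LPS and CON_CON_LPS stood apart from the other libraries of its group in several integrin genes, as given below.

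All 10 genes lie on the plus strand in GENCODE M21, whose build is GRCm38. Itgal (ENSMUSG00000030830.18, chr7:127296260-127335138), Itgam (ENSMUSG00000030786.18, chr7:128062640-128118491) and Itgax (ENSMUSG00000030789.9, chr7:128129547-128150657) share a chromosome with 11056 bases between the end of Itgam and the start of Itgax. Itgb2 (ENSMUSG00000000290.13) lies at chr10:77530252-77565708. Itga4 (ENSMUSG00000027009.18, chr2:79255426-79333123), Itga6 (ENSMUSG00000027111.16, chr2:71745616-71858416) and Itgav (ENSMUSG00000027087.11, chr2:83724397-83806916) are on chromosome 2, Itga9 (ENSMUSG00000039115.13) is at chr9:118606690-118901003, Itgb1 (ENSMUSG00000025809.15) at chr8:128685654-128733200 and Itgb5 (ENSMUSG00000022817.15) at chr16:33829665-33949338. The kit kept no strand information, so reads of Itgav cannot be told apart from those of the antisense gene Gm13684 over the 634 bases of exon they share. Gm49368 shares 3450 bases of exon with Itgam on the same strand.

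The 250 bases before the start site are shown for 3 genes: Itgam and Itgax, chromosomal neighbours whose levels lay far apart, and Itgav, which fell with LPS in 3 arms. They come from the RefSeq promoter table on GRCm38.p6, which matched 7 of the 10 genes; windows of the other genes are not shown. Capitals mark the PU box letters GAGGAA, searched on both strands (so TTCCTC where the match is on the minus strand). Itgam is at chr7:128062390-128062639, Itgax at chr7:128129300-128129549 and Itgav at chr2:83724147-83724396, all on the plus strand.
Itgam: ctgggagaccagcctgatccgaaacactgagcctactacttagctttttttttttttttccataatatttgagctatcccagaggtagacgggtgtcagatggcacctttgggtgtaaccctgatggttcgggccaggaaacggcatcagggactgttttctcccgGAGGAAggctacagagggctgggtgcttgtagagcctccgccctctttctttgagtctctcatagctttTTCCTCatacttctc
Itgax: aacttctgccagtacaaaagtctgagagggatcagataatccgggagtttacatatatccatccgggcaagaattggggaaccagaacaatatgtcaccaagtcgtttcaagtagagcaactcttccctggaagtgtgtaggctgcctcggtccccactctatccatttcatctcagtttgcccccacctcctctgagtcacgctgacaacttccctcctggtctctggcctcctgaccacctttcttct
Itgav: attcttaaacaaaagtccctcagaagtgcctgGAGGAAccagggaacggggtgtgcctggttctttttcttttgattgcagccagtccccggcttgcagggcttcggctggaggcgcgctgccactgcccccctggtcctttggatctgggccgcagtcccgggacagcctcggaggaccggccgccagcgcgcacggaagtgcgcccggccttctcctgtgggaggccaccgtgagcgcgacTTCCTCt
Itgam has 2 matches and Itgav has 2, Itgax has none in this window, and 23.3% of 32851 promoter windows of this length hold at least 1. Of the windows not shown, that of Itgb1 has 1 match, and those of Itgb5 and Itga4 have none. The Itga9 window (chr9:118711442-118711691) has none either, but it lies inside the gene, downstream of the gene start given above. It does not describe the bases before that start. PU.1 is a transcription factor of the macrophage lineage. A match describes the letters and is neither a site nor a cause.

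Per kilobase of exon, Itgam was the highest of the 10 genes in all 8 groups. In CON_CON_SAL libraries the mean levels per kilobase were 318 ± 40.0 CPM for Itgam, 152 ± 23.4 for Itgb5, 64.3 ± 7.32 for Itgb2, 57.8 ± 6.15 for Itga6, 56.1 ± 6.16 for Itgb1, 31.5 ± 2.78 for Itgav, 20.1 ± 1.25 for Itga9, 1.19 ± 0.127 for Itgax, 0.215 ± 0.113 for Itga4 and 0.0976 ± 0.0906 for Itgal (SD, n = 4). The libraries of Itgb2 and Itga6, of Itga6 and Itgb1, and of Itga4 and Itgal overlapped in that order, and the other neighbours did not. In MIA_PLX_LPS libraries the order was Itgam at 262 ± 82.2, Itgb2 at 122 ± 20.5, Itgb5 at 97.3 ± 15.4, Itgb1 at 44.1 ± 10.2, Itga6 at 26.3 ± 5.09, Itgav at 17.7 ± 2.9, Itgal at 3.86 ± 1.11, Itga9 at 3.38 ± 1.21, Itgax at 0.845 ± 0.389 and Itga4 at 0.382 ± 0.117 CPM per kilobase (SD, n = 6). There Itgal ranked above Itga9, Itgax and Itga4, where in MIA_PLX_SAL and in CON_CON_SAL libraries it was last. In CON_PLX_LPS, MIA_CON_LPS and CON_CON_LPS libraries Itgal had rank 8, below Itga9 and above Itgax. In MIA_PLX_LPS libraries Itgb2 and Itgb5, Itga6 and Itgav, Itgal and Itga9, and Itgax and Itga4 overlapped. The place of Itga6 depended on the length used, which was 9025 bases for the union of exons and 4310 for its longest transcript. Per kilobase of the longest transcript, Itga6 averaged 121 CPM in CON_CON_SAL libraries, above Itgb2 at 66.1 CPM. By that measure Itga6 was also above Itgb1 in MIA_PLX_LPS libraries.

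**Figure D1:**
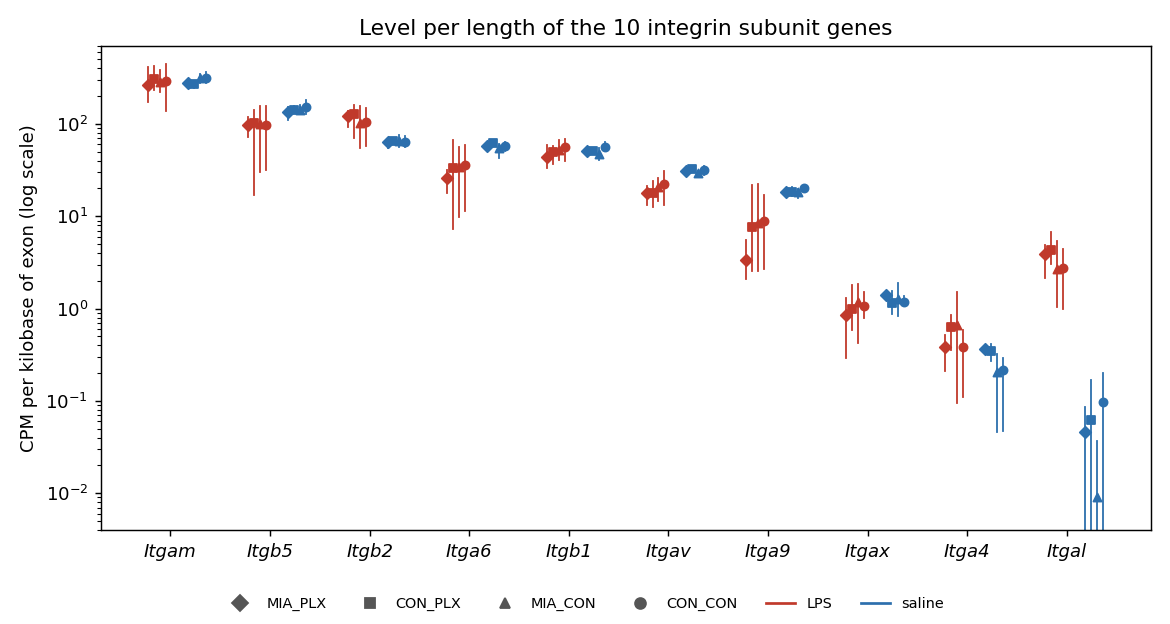
Level of each gene per kilobase of exon, in CPM on a log scale, in the 4 arms (marker shapes) with LPS on the left and saline on the right of each gene. Markers are means and lines run over the lowest to the highest library; a saline line of Itgal that reaches the bottom axis includes a library at 0.

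With LPS, Itgal and its beta chain Itgb2 were called higher in all 4 arms and Itgav lower in 3 arms. Itga9 and Itga6 were called lower and Itga4 higher in 1 arm each. Itga9 and Itga6 had negative log2 changes in the other arms too, and several calls rested on single libraries, as given below. Itgam, Itgax, Itgb1 and Itgb5 did not pass the test in any arm. Of the 10 genes, 5 were called in MIA_PLX (2 higher, 3 lower, at an edgeR adjusted p under 0.05), 3 in CON_PLX (2 higher, 1 lower), 4 in MIA_CON (3 higher, 1 lower) and 2 in CON_CON (2 higher, 0 lower). The same rule called 22.3% of all genes tested in MIA_PLX, 31.5% in CON_PLX, 25.4% in MIA_CON and 23.6% in CON_CON. Split by direction, it called 11.8% of genes higher and 10.4% lower in MIA_PLX, 17.5% and 14.0% in CON_PLX, 14.5% and 10.9% in MIA_CON, and 13.7% and 9.84% in CON_CON. LPS and saline libraries did not overlap for 6 of the 10 genes in MIA_PLX (2 higher, 4 lower), 3 in CON_PLX (2 higher, 1 lower), 2 in MIA_CON (1 higher, 1 lower) and 2 in CON_CON (1 higher, 1 lower). Over all genes tested, 12.1% did not overlap with LPS higher and 13.3% with LPS lower in MIA_PLX, 14.0% and 13.8% in CON_PLX, 8.94% and 8.46% in MIA_CON, and 11.7% and 12.9% in CON_CON. The median log2 change of the 10 genes was -0.33 in MIA_PLX, -0.14 in CON_PLX, -0.12 in MIA_CON and -0.13 in CON_CON, against medians of 0.04, 0.03, 0.03 and 0.06 over all genes tested in those arms. The 4 LPS comparisons share no libraries, but they come from the same fit. LPS libraries of CON_PLX and CON_CON with the same replicate number also correlated, as given in the processing part. The arms are therefore not fully separate repeats.

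**Figure D2:**
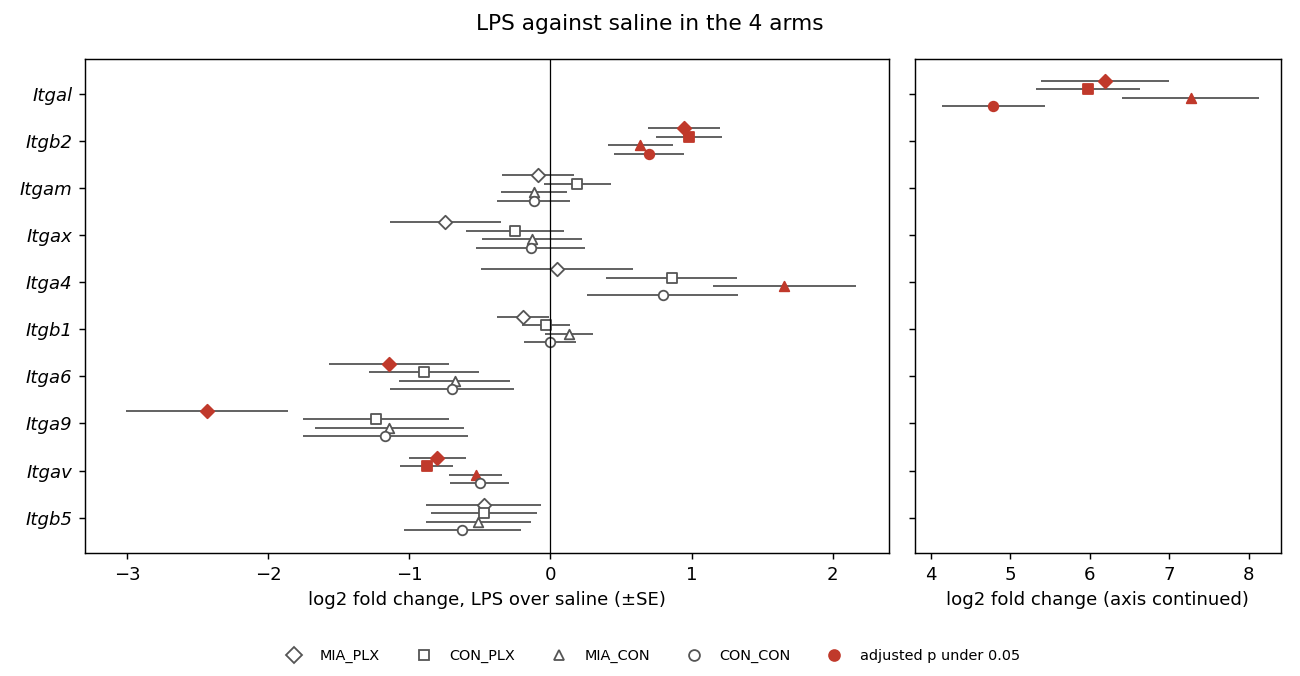
Log2 fold change of each gene, LPS over saline, with its standard error, in the 4 arms from top to bottom MIA_PLX, CON_PLX, MIA_CON and CON_CON. Filled red markers have an edgeR adjusted p under 0.05; the right panel continues the axis for Itgal, which lies at 4.79 to 7.27.

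Itgal, the alpha chain of LFA-1, rose with LPS in all 4 arms. Itgal had a lowest value of 14, a median of 27.7 and a highest value of 32.1 CPM in the 6 MIA_PLX_LPS libraries, against 0.56, 0.357 and 0 CPM in the 3 MIA_PLX_SAL libraries. Itgal had a lowest value of 19.7, a median of 26 and a highest value of 44.6 CPM in the 6 CON_PLX_LPS libraries, against 0.2, 1.1, 0 and 0.324 CPM in the 4 CON_PLX_SAL libraries. Saline libraries of both arms were at 1.1 CPM or less. Itgal had a lowest value of 6.76, a median of 13.6 and a highest value of 35.1 CPM in the 6 MIA_CON_LPS libraries, against 0.241, 0, 0 and 0 CPM in the 4 MIA_CON_SAL libraries. Itgal had 6.43, 25.8, 12 and 28.9 CPM in the 4 CON_CON_LPS libraries, against 0.935, 1.32, 0.312 and 0 CPM in the 4 CON_CON_SAL libraries. In each arm every LPS library was above every saline library. The log2 fold changes were 6.19 ± 0.808 in MIA_PLX, 5.98 ± 0.651 in CON_PLX, 7.27 ± 0.864 in MIA_CON and 4.79 ± 0.651 in CON_CON, with edgeR adjusted p of 8.06e-07 in MIA_PLX, 1.61e-08 in CON_PLX, 1.66e-07 in MIA_CON and 1.74e-06 in CON_CON. Itgal was at 0 in 1 of 3 MIA_PLX_SAL libraries, 1 of 4 CON_PLX_SAL libraries, 3 of 4 MIA_CON_SAL libraries and 1 of 4 CON_CON_SAL libraries, so the fitted changes rest on few saline counts. As a ratio of counts per TMM-scaled library total, LPS over saline with a 95% interval for counting error, MIA_PLX gave 394 counts against 3 and a ratio of 85.1 (28.9 to 414). CON_PLX gave 645 counts against 7 and 66.3 (32.0 to 166), MIA_CON gave 292 against 1 and 232 (41.2 to 9176), and CON_CON gave 272 against 9 and 29.0 (15.1 to 64.2). The summed monocyte markers were higher in every LPS library than in every saline library too, at 25.4 CPM or more against 21.9 CPM or less. Of the 6 monocyte markers tested of 8 listed, 5 rose and 1 fell in MIA_PLX, 4 and 1 in CON_PLX, 5 and 0 in MIA_CON and 4 and 0 in CON_CON by edgeR, with median log2 changes of 3.81, 2.2, 4.20 and 3.95, and Fn1, also listed as an integrin ligand, gave the highest level of the 6 in LPS libraries. The marker that fell in MIA_PLX and CON_PLX was Ccr2, the receptor that defines classical monocytes, which was at 1.38 (MIA_PLX), 2.86 (CON_PLX), 2.67 (MIA_CON) and 2.89 CPM (CON_CON) in LPS libraries, against 7.61, 6.82, 6.19 and 5.25 CPM in the saline libraries of those arms. Itgal itself is also expressed by monocytes. The part of monocytes, or of neutrophils, some of whose markers rose as well, in the rise of Itgal was not tested. The fitted Itgal change moved with the few saline counts: it was 8.89 in MIA_CON without MIA_CON_SAL replicate 1 (all other saline libraries of that arm were at 0, so this value is no bound), 7.15 in CON_PLX without CON_PLX_SAL replicate 2 and 6.95 in MIA_PLX without MIA_PLX_SAL replicate 2.

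Itgb2, the beta chain shared by Itgam, Itgax and Itgal, rose with LPS in all 4 arms. Itgb2 had a lowest value of 283, a median of 402 and a highest value of 426 CPM in the 6 MIA_PLX_LPS libraries, against 208, 169 and 202 CPM in the 3 MIA_PLX_SAL libraries. Itgb2 had a lowest value of 213, a median of 410.1 and a highest value of 487 CPM in the 6 CON_PLX_LPS libraries, against 196, 208, 201 and 187 CPM in the 4 CON_PLX_SAL libraries. In both arms every LPS library was above every saline library. Itgb2 had a lowest value of 168, a median of 289 and a highest value of 473 CPM in the 6 MIA_CON_LPS libraries, against 202, 234, 171 and 196 CPM in the 4 MIA_CON_SAL libraries. Itgb2 had 176, 374, 269.5 and 456 CPM in the 4 CON_CON_LPS libraries, against 224, 201, 171 and 189 CPM in the 4 CON_CON_SAL libraries. In these arms the LPS libraries of replicate 1 fell below the saline range or within it, and all other LPS libraries were above every saline library. The log2 fold changes were 0.95 ± 0.258 in MIA_PLX, 0.98 ± 0.232 in CON_PLX, 0.64 ± 0.23 in MIA_CON and 0.70 ± 0.248 in CON_CON, with edgeR adjusted p of 0.00699 in MIA_PLX, 0.00126 in CON_PLX, 0.0389 in MIA_CON and 0.0372 in CON_CON. The call in CON_CON was lost without CON_CON_LPS replicate 2 (0.60 (adjusted p = 0.0925)) or 5 (0.47 (adjusted p = 0.187)) or without CON_CON_SAL replicate 2 (0.71 (adjusted p = 0.067)), 3 (0.64 (adjusted p = 0.0987)) or 4 (0.68 (adjusted p = 0.0799)). In MIA_CON it was lost without MIA_CON_LPS replicate 2 (0.49 (adjusted p = 0.0972)), 3 (0.56 (adjusted p = 0.0688)) or 5 (0.65 (adjusted p = 0.0515)) or MIA_CON_SAL replicate 1 (0.64 (adjusted p = 0.0763)), 3 (0.57 (adjusted p = 0.115)) or 4 (0.63 (adjusted p = 0.0838)), and in MIA_PLX without MIA_PLX_SAL replicate 3 (0.84 (adjusted p = 0.0531)), by edgeR with the direction kept.

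Itgam, the alpha chain of complement receptor 3, did not pass the test in any arm. Itgam had a lowest value of 869, a median of 1242 and a highest value of 2076 CPM in the 6 MIA_PLX_LPS libraries, against 1470.1, 1363 and 1373 CPM in the 3 MIA_PLX_SAL libraries. Itgam had a lowest value of 1170.5, a median of 1469.5 and a highest value of 2149.6 CPM in the 6 CON_PLX_LPS libraries, against 1373, 1236, 1478 and 1311 CPM in the 4 CON_PLX_SAL libraries. In both arms the saline libraries lay inside the range of the LPS libraries. Itgam had a lowest value of 1104, a median of 1391 and a highest value of 1928 CPM in the 6 MIA_CON_LPS libraries, against 1750.4, 1620.4, 1482 and 1404 CPM in the 4 MIA_CON_SAL libraries. Itgam had 982, 2232, 687 and 1989 CPM in the 4 CON_CON_LPS libraries, against 1818, 1709, 1379 and 1486 CPM in the 4 CON_CON_SAL libraries. LPS and saline libraries overlapped in all 4 arms, and the LPS libraries of CON_CON spread most, with a SD of 753 CPM around a mean of 1472 CPM, against a SD of 201 CPM around 1598 CPM in CON_CON_SAL. The log2 fold changes were -0.09 ± 0.257 in MIA_PLX, 0.19 ± 0.236 in CON_PLX, -0.12 ± 0.235 in MIA_CON and -0.12 ± 0.258 in CON_CON, with edgeR adjusted p of 0.85 in MIA_PLX, 0.579 in CON_PLX, 0.752 in MIA_CON and 0.782 in CON_CON. The 95% intervals ran from -0.59 to 0.41 in MIA_PLX, -0.27 to 0.65 in CON_PLX, -0.58 to 0.34 in MIA_CON and -0.62 to 0.39 in CON_CON.

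Itgax (CD11c), the alpha chain of complement receptor 4 and a marker of dendritic cells and of disease-associated microglia, was low in all groups. Itgax had a lowest value of 1.39, a median of 4.51 and a highest value of 6.27 CPM in the 6 MIA_PLX_LPS libraries, against 6.44, 6.43 and 7.5 CPM in the 3 MIA_PLX_SAL libraries. In MIA_PLX every LPS library was below every saline library, and its change of -0.75 ± 0.393 had an edgeR adjusted p of 0.182. In the other arms its LPS and saline libraries overlapped and its means were 4.73 (CON_PLX_LPS), 5.60 (MIA_CON_LPS) and 5.16 CPM (CON_CON_LPS), against 5.58, 6.08 and 5.73 CPM in the saline groups of those arms. Among the alpha chains that pair with Itgb2, Itgam made up 98.1% of their level per kilobase in MIA_PLX_LPS, 98.3% in CON_PLX_LPS, 98.7% in MIA_CON_LPS and 98.6% in CON_CON_LPS, against 99.5% or 99.6% in the saline groups. Itgal made up 1.58%, 1.41%, 0.886% and 0.944% in those LPS groups, against 0.0163%, 0.0244%, 0.00261% and 0.0288% in the saline groups of the same arms. The level of the alpha chains per level of Itgb2, per kilobase, was 2.22 in MIA_PLX_LPS, 2.56 in CON_PLX_LPS, 2.99 in MIA_CON_LPS and 2.84 in CON_CON_LPS, against 4.46, 4.17, 4.79 and 4.96 in the saline groups of those arms.

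**Figure D3:**
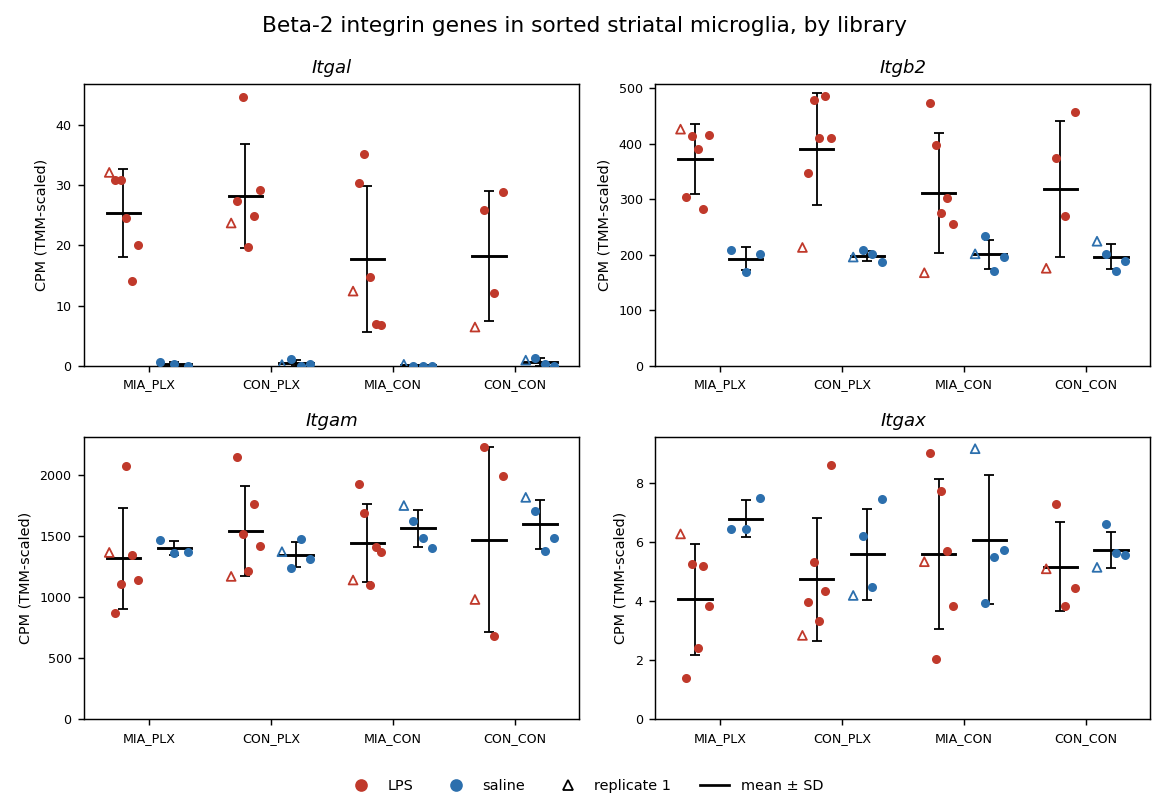
CPM of the beta-2 family genes in each library (points), with the mean and SD of each group, LPS left of saline in each arm. Itgal is near 0 in all saline libraries, the LPS points of Itgb2 are above the saline points except replicate 1 (triangles) in MIA_CON and CON_CON, Itgam groups overlap in all 4 arms, and Itgax groups overlap except in MIA_PLX, where every LPS point is below every saline point.

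Itga9, an alpha subunit that pairs with Itgb1 and binds tenascin-C, osteopontin and ADAM proteins, fell with LPS in MIA_PLX. Itga9 had a lowest value of 16.1, a median of 23.4 and a highest value of 42.7 CPM in the 6 MIA_PLX_LPS libraries, against 152, 132 and 142 CPM in the 3 MIA_PLX_SAL libraries. All LPS libraries were below all saline libraries, and the log2 change was -2.43 ± 0.573 with an edgeR adjusted p of 0.00222. Itga9 had a lowest value of 19.6, a median of 29.7 and a highest value of 169 CPM in the 6 CON_PLX_LPS libraries, against 159.6, 144, 129 and 128 CPM in the 4 CON_PLX_SAL libraries. Itga9 had a lowest value of 19.7, a median of 42.5 and a highest value of 172 CPM in the 6 MIA_CON_LPS libraries, against 149, 153, 122 and 144 CPM in the 4 MIA_CON_SAL libraries. LPS and saline libraries overlapped in these arms. Itga9 had 132, 98.9, 20.7 and 21.9 CPM in the 4 CON_CON_LPS libraries, against 150.3, 143, 165 and 159 CPM in the 4 CON_CON_SAL libraries. There the groups did not overlap. The highest LPS library in each of the 3 arms was replicate 1, with 169 CPM in CON_PLX_LPS, 172 in MIA_CON_LPS and 132 in CON_CON_LPS, and the others ran from 19.6 to 98.9 CPM, below the saline libraries. The log2 changes of -1.24 ± 0.52, -1.14 ± 0.526 and -1.17 ± 0.585 had edgeR adjusted p of 0.0688 (CON_PLX), 0.109 (MIA_CON) and 0.149 (CON_CON). Without replicate 1 in every group, an alternative chosen after seeing the data, they were -1.85 (adjusted p = 0.00284) in CON_PLX, -1.66 (adjusted p = 0.0105) in MIA_CON and -1.72 (adjusted p = 0.0216) in CON_CON by edgeR. With limma voom and a quality weight for each of the 37 libraries the change passed in these arms too, at -2.08 (adjusted p = 3.46e-07) in CON_PLX, -1.61 (adjusted p = 0.000874) in MIA_CON and -1.81 (adjusted p = 0.000981) in CON_CON. Such weights can lower the pull of libraries that stand apart from their group, so the libraries did not count equally. This result is therefore not separate from leaving out replicate 1. DESeq2 gave -1.30 (adjusted p = 0.0484) in CON_PLX. The same 3 libraries were lowest of their group for Itga6 (65.8, 89.4 and 103 CPM), Itgb5 (61.0, 107 and 112 CPM) and Itgb2 (213, 168 and 176 CPM), and had the lowest monocyte marker sums (60.8, 29.6 and 25.4 CPM). Replicate 1 of MIA_PLX_LPS was within the range of its group for Itga9 and Itga6, and above all others of its group for Itgb5 (424.5 CPM) and Itgb2 (426 CPM), with the lowest monocyte sum of its group at 116 CPM.

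**Figure D4:**
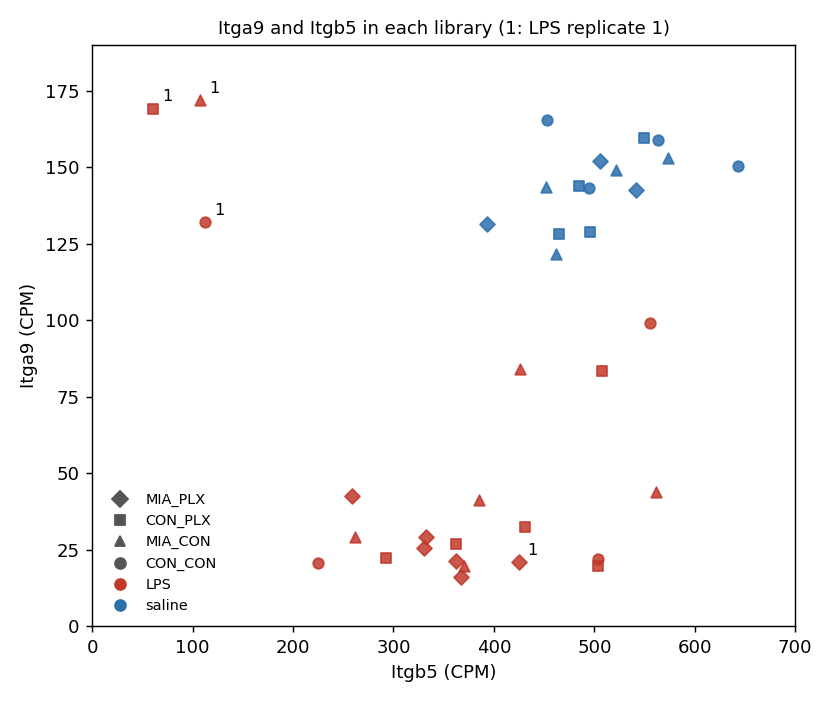
Itga9 against Itgb5 in CPM, each point a library; shapes are arms, red is LPS and blue saline, and 1 marks replicate 1 of an LPS group. The replicate 1 libraries of CON_PLX, MIA_CON and CON_CON lie at high Itga9 and low Itgb5, apart from the other LPS libraries; that of MIA_PLX does not.

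Itgav fell with LPS in 3 of 4 arms. Itgav had a lowest value of 144, a median of 190.4 and a highest value of 228 CPM in the 6 MIA_PLX_LPS libraries, against 338, 319 and 334 CPM in the 3 MIA_PLX_SAL libraries. Itgav had a lowest value of 137, a median of 184 and a highest value of 261 CPM in the 6 CON_PLX_LPS libraries, against 364, 348, 335 and 352 CPM in the 4 CON_PLX_SAL libraries. In both arms all LPS libraries were below all saline libraries. Itgav had a lowest value of 159, a median of 224 and a highest value of 278 CPM in the 6 MIA_CON_LPS libraries, against 328, 295, 321 and 332 CPM in the 4 MIA_CON_SAL libraries. Itgav had 164, 319, 144 and 329 CPM in the 4 CON_CON_LPS libraries, against 330.0, 304, 342 and 376 CPM in the 4 CON_CON_SAL libraries. The libraries did not overlap in MIA_CON and overlapped in CON_CON. The log2 changes were -0.80 ± 0.205 in MIA_PLX, -0.88 ± 0.189 in CON_PLX, -0.53 ± 0.19 in MIA_CON and -0.50 ± 0.21 in CON_CON, with edgeR adjusted p of 0.00412 in MIA_PLX, 0.000452 in CON_PLX, 0.0371 in MIA_CON and 0.0797 in CON_CON. The call in MIA_CON was lost without MIA_CON_LPS replicate 1 (-0.48 (adjusted p = 0.0779)), 4 (-0.50 (adjusted p = 0.0707)) or 5 (-0.45 (adjusted p = 0.0921)) or MIA_CON_SAL replicate 1 (-0.52 (adjusted p = 0.0777)), 3 (-0.53 (adjusted p = 0.073)) or 4 (-0.51 (adjusted p = 0.0815)), by edgeR with the direction kept. In CON_CON it was called without CON_CON_LPS replicate 2 (-0.68 (adjusted p = 0.0205)) or 5 (-0.70 (adjusted p = 0.0173)).

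Itgb5, a beta partner of Itgav, averaged 346 CPM in MIA_PLX_LPS, 359.6 in CON_PLX_LPS, 352 in MIA_CON_LPS and 349 in CON_CON_LPS, against 480.0, 499, 502 and 539 CPM in the saline groups of those arms. Its log2 changes of -0.47 ± 0.407 in MIA_PLX, -0.47 ± 0.374 in CON_PLX, -0.51 ± 0.374 in MIA_CON and -0.63 ± 0.415 in CON_CON did not pass (edgeR adjusted p 0.448 in MIA_PLX, 0.36 in CON_PLX, 0.33 in MIA_CON and 0.288 in CON_CON), and LPS and saline libraries overlapped in all 4 arms. The level of Itgav per level of Itgb5, per kilobase, averaged 0.183 in MIA_PLX_LPS, 0.257 in CON_PLX_LPS, 0.257 in MIA_CON_LPS and 0.275 in CON_CON_LPS, against 0.231, 0.232, 0.212 and 0.211 in the saline groups. Replicate 1 alone put the last 3 LPS means above saline, at 0.74 in CON_PLX_LPS, 0.563 in MIA_CON_LPS and 0.482 in CON_CON_LPS. Without replicate 1 in every group, chosen after seeing the data, the means were 0.184 in MIA_PLX_LPS, 0.16 in CON_PLX_LPS, 0.195 in MIA_CON_LPS and 0.206 in CON_CON_LPS, against 0.231, 0.237, 0.214 and 0.225 in the saline groups of those arms.

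Itga6, an alpha subunit of laminin receptors, fell with LPS in MIA_PLX. Itga6 had a lowest value of 162, a median of 253 and a highest value of 289 CPM in the 6 MIA_PLX_LPS libraries, against 549, 522 and 504 CPM in the 3 MIA_PLX_SAL libraries. Those groups did not overlap, with a log2 change of -1.15 ± 0.424 (edgeR adjusted p = 0.0487). That p is close to the threshold: leaving out any 1 of 20 of the 37 libraries put it at 0.0515 to 0.116, and 8 of these are MIA_PLX_LPS replicates 1, 3, 4, 5 and 6 and MIA_PLX_SAL replicates 2, 3 and 4, with log2 changes of -1.18 to -1.06. In the other arms the log2 changes were -0.90 ± 0.393 (CON_PLX), -0.68 ± 0.394 (MIA_CON) and -0.70 ± 0.438 (CON_CON), with edgeR adjusted p of 0.0803, 0.208 and 0.262. Without CON_PLX_LPS replicate 2, whose 606 CPM was above all CON_PLX_SAL libraries, the CON_PLX change was -1.22 (adjusted p = 0.0141) by edgeR. The CON_PLX change also passed with DESeq2, at -0.93 (adjusted p = 0.0471), and with limma voom, at -1.02 (adjusted p = 0.000567), as did that in MIA_CON with limma voom, at -0.78 (adjusted p = 0.0442). The MIA_PLX change did not pass with no filter on low counts, at -1.17 (adjusted p = 0.127) by edgeR.

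Itga4, which pairs with Itgb1 or Itgb7 and binds Vcam1 and fibronectin, rose with LPS in MIA_CON, and was low in every group. Itga4 had a lowest value of 1.31, a median of 7.54 and a highest value of 21.1 CPM in the 6 MIA_CON_LPS libraries, against 3.85, 2.63, 0.646 and 4.46 CPM in the 4 MIA_CON_SAL libraries. The groups overlapped: MIA_CON_LPS replicate 5 was at 1.31 CPM and 3 of the 4 saline libraries were above it. The log2 change was 1.66 ± 0.509 with an edgeR adjusted p of 0.0152. It was 1.21 (adjusted p = 0.067) without MIA_CON_LPS replicate 2 and 1.33 (adjusted p = 0.072) without MIA_CON_SAL replicate 3. In MIA_PLX, CON_PLX and CON_CON the log2 changes were 0.05 ± 0.537, 0.86 ± 0.464 and 0.80 ± 0.535 (edgeR adjusted p 0.966, 0.161 and 0.295).

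Itgb1, the common partner of Itga4, Itga6 and Itga9, averaged 180.1 CPM in MIA_PLX_LPS, 205 in CON_PLX_LPS, 212 in MIA_CON_LPS and 228 in CON_CON_LPS, against 206, 209, 194 and 229 CPM in the saline groups of those arms. LPS and saline overlapped in all 4 arms, and the log2 changes of -0.19 ± 0.185 in MIA_PLX, -0.03 ± 0.169 in CON_PLX, 0.13 ± 0.17 in MIA_CON and -0.00 ± 0.185 in CON_CON had edgeR adjusted p of 0.506 in MIA_PLX, 0.906 in CON_PLX, 0.617 in MIA_CON and 0.993 in CON_CON. In CON_CON the 95% interval ran from -0.37 to 0.36. That in MIA_PLX, with the same standard error of 0.185, lay lower, around -0.19.

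**Figure D5:**
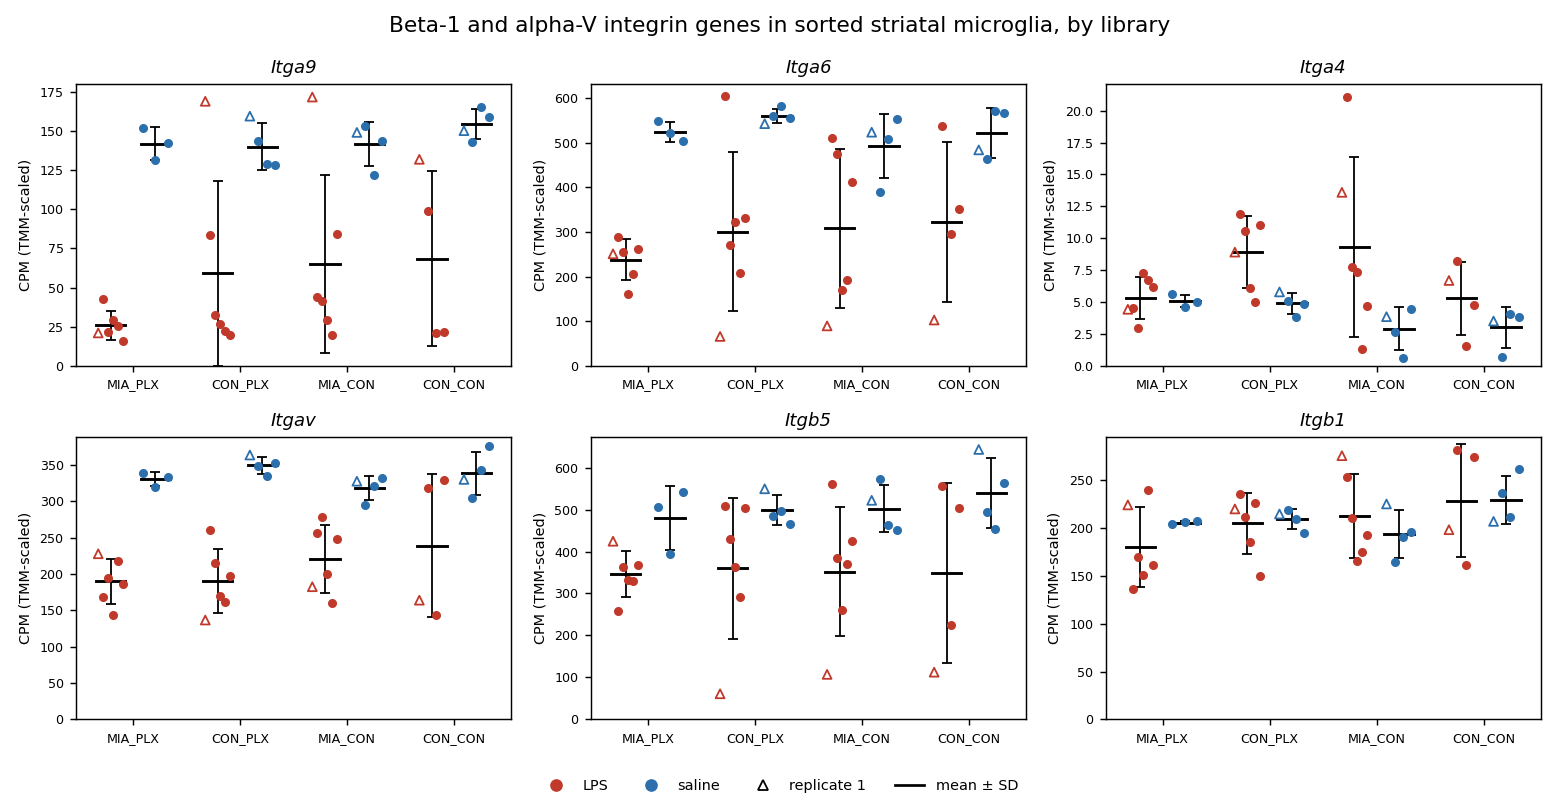
CPM of the remaining genes in each library (points), with the mean and SD of each group, LPS left of saline in each arm and replicate 1 as triangles. Itgav is lower with LPS in MIA_PLX, CON_PLX and MIA_CON, and replicate 1 stands apart in Itga9, Itga6 and Itgb5 in 3 arms.

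MIA against CON and PLX against the arm without it called 0 of the 10 genes by edgeR in any of 8 comparisons within an injection, or in any of 4 interactions, in the fit reported or in any alternative tried, DESeq2 and limma voom included. In the fit reported, over all 13420 genes those comparisons called 0 genes each, except MIA against CON in PLX with LPS (2 genes, 0.0149%) and PLX against none in CON with LPS (1 gene, 0.00745%). These counts depended on the fit. With only the groups compared, MIA against CON in PLX with saline called 136 of 11962 genes. PLX against none with saline then called 10 in CON and 2 in MIA, MIA against CON without PLX called 1 with LPS, and the rest called 0. In the fit reported, 3 results of the 10 genes passed 0.05 before adjustment. Itga9 averaged 26.0 CPM in MIA_PLX_LPS libraries, against 59.0 CPM in CON_PLX_LPS libraries, a log2 difference of -1.18 ± 0.499 (edgeR adjusted p = 0.502), and it averaged 26.0 CPM in MIA_PLX_LPS libraries, against 65.0 CPM in MIA_CON_LPS libraries, a difference of -1.29 ± 0.504 (edgeR adjusted p = 0.446). Those comparisons share the MIA_PLX_LPS libraries, and CON_PLX_LPS and MIA_CON_LPS hold the high replicate 1 libraries. The interaction of PLX with LPS in MIA was -1.61 ± 0.731 for Itga4 (edgeR adjusted p = 1). For Itgam the log2 differences with LPS were -0.22 (MIA against CON in PLX), -0.13 (PLX against none in MIA), 0.06 (PLX against none in CON) and -0.03 (MIA against CON without PLX), with edgeR adjusted p of 0.779, 0.903, 0.976 and 0.982. A p above the threshold does not show that these groups are alike.

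Of the 17 other integrin subunit genes, 5 passed the filter on low counts: Itga2, Itga5, Itgae, Itgb3 and Itgb7. Of these, 2 rose and 0 fell in MIA_PLX, 1 and 1 in CON_PLX, 2 and 1 in MIA_CON and 1 and 1 in CON_CON, with median log2 changes of 0.52, -0.01, 0.76 and -0.02. Over all genes tested, 22.3%, 31.5%, 25.4% and 23.6% were called in those arms, with medians of 0.04, 0.03, 0.03 and 0.06. With 5 genes, such counts and medians rest on single genes. Itga5, the alpha chain of the fibronectin receptor, rose with LPS in all 4 arms, at a log2 change of 2.42 in MIA_PLX, 2.96 in CON_PLX, 1.82 in MIA_CON and 2.37 in CON_CON. Itga5 averaged 84.7 (MIA_PLX), 99.9 (CON_PLX), 53.0 (MIA_CON) and 80.5 CPM (CON_CON) in LPS libraries, against 15.7, 12.7, 15.0 and 15.5 CPM in the saline libraries of those arms, with edgeR adjusted p of at most 9.63e-05. Itgae, the alpha chain of an E-cadherin receptor, fell in CON_PLX (-1.50), MIA_CON (-1.31) and CON_CON (-1.56). Itgb7, a partner of Itga4, rose in MIA_PLX (3.67) and MIA_CON (2.26) at levels of 3.12 and 1.99 CPM in those LPS groups, against 0.238 and 0.391 CPM in their saline groups.

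Counts of the next lists stand against 11.8% of all genes called higher and 10.4% lower in MIA_PLX, 17.5% and 14.0% in CON_PLX, 14.5% and 10.9% in MIA_CON, and 13.7% and 9.84% in CON_CON. Adaptors that link integrins to actin or activate them changed in both directions: of 35 tested of 41 listed, 5 rose and 8 fell in MIA_PLX, 7 and 8 in CON_PLX, 7 and 8 in MIA_CON, and 5 and 6 in CON_CON. The median log2 change of the 35 was -0.08 in MIA_PLX, 0.08 in CON_PLX, -0.03 in MIA_CON and 0.05 in CON_CON, near the medians over all genes given above. Filamin A (Flna) rose by log2 2.70 in MIA_PLX, 2.64 in CON_PLX, 1.95 in MIA_CON and 2.56 in CON_CON, and zyxin (Zyx) and Ptk2b, a focal adhesion kinase relative, rose in all 4 arms as well. Lims1, an adaptor of the ILK complex, fell by log2 -1.37 in MIA_PLX, -1.48 in CON_PLX, -1.06 in MIA_CON and -1.27 in CON_CON, and Tns3 and Apbb1ip fell in all 4 arms. Tln1, which activates integrins, rose in CON_PLX (0.77, edgeR adjusted p = 0.00805), and Fermt3, its partner in leukocytes, was not called in any arm. Of the integrin ligands, 19 of 38 were tested, and 7 rose and 3 fell in MIA_PLX, 8 and 4 in CON_PLX, 7 and 3 in MIA_CON and 8 and 4 in CON_CON. Their median log2 changes were 0.71, 0.74, 0.54 and 1.13 in those arms, against 0.04, 0.03, 0.03 and 0.06 over all genes tested. Spp1 (osteopontin), which Itga9, Itga4 and Itgav bind, rose by log2 7.65 in MIA_PLX, 7.26 in CON_PLX, 6.24 in MIA_CON and 7.73 in CON_CON. Saline libraries averaged 0.759 (MIA_PLX), 0.933 (CON_PLX), 0.872 (MIA_CON) and 0.282 CPM (CON_CON) of Spp1, so the size of these changes rests on few saline counts. Fibronectin (Fn1), Vcam1, C3 and Plaur rose in all 4 arms. Icam1, the main ligand of LFA-1, rose in CON_CON (1.24, edgeR adjusted p = 0.0347) and had log2 changes of 0.70 (MIA_PLX), 0.68 (CON_PLX) and 0.26 (MIA_CON) elsewhere. Tgfb1 fell in CON_PLX (-0.66), MIA_CON (-0.78) and CON_CON (-0.95), and was at -0.64 in MIA_PLX. Nephronectin (Npnt) and Jam2 fell in all 4 arms, by at least 2.52 and 2.10 on the log2 scale. Of 7 tetraspanin partners of integrins, 2 rose and 3 fell in MIA_PLX, 2 and 2 in CON_PLX, 2 and 1 in MIA_CON and 1 and 2 in CON_CON, with median log2 changes of 0.08, 0.12, 0.20 and 0.09. Cd63 rose in all 4 arms (log2 2.48 in MIA_PLX, 2.47 in CON_PLX, 2.31 in MIA_CON and 2.37 in CON_CON), and Cd9 fell by log2 -0.85 in MIA_PLX, -0.99 in CON_PLX, -0.52 in MIA_CON and -0.75 in CON_CON, in MIA_CON at an edgeR adjusted p of 0.045 that was 0.0502 to 0.139 without any 1 of 19 libraries. Cd37 fell in MIA_PLX, CON_PLX and CON_CON. Single libraries also decided the calls of Icam1, Itgae, Itgb7, Cd37 and Tgfb1 and, in 1 arm each, of Vcam1 and Ptk2b, with values in the closing part. The monocyte and neutrophil markers moved in the same comparison, and their part in these lists was not tested.

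Over the 37 libraries, the genes most like the members in log2 CPM were Xdh and C5ar1 for Itgal (Pearson r 0.978 and 0.973), Ap1s2 and Ifi30 for Itgb2 (0.944 and 0.93), Ulk2 and Sh3kbp1 for Itgb5 (0.962 and 0.951) and Slc29a3 and Nuak1 for Itga6 (0.96 and 0.959). For Itga9 they were Dock10 and Ppm1l (0.936 and 0.899), for Itgav Slc9a9 and Cltc (0.938 and 0.936) and for Itgam Hipk2 and Mrfap1 (0.87 and 0.837). The likeness was weakest for Itgb1, with Tpm3 and Ckap4 (0.747 and 0.709), Itga4, with Psmd4 and Vcam1 (0.673 and 0.663), and Itgax, with Hnrnpul1 and Reep3 (0.655 and 0.613). These are descriptions without a p, since the libraries fall into LPS and saline clusters and share their depth and scaling.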

How the data were processed

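The authors deposited 1 table of estimated counts for 39 libraries. The submitters' processing notes name STAR, RSEM and DESeq2, with neither role nor version; build and annotation: not given in the sources used here. Of its nonzero values 14.71% were not whole, and values were rounded. Left out were 2 libraries marked for exclusion in their titles (replicate 3 of CON_CON_LPS, replicate 1 of MIA_PLX_SAL), so 37 were used. Symbols came from GENCODE M21 (55227 identifiers matched, 54435 with their version).

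One mean per group was fitted with edgeR 4.0.16 quasi-likelihood in R 4.3.3 (TMM, filterByExpr minimum count 10 and total 15, robust), two-sided, with Benjamini-Hochberg adjustment over 13420 genes in each of 16 contrasts and a call at an adjusted p under 0.05. Intervals are 95% and, for count ratios, cover counting error only. Per-kilobase levels divide CPM by the union of exons. DESeq2 1.42.0 and limma 3.58.1 voom with a quality weight for each library were alternatives. The fit was tested on simulated data. List members were named by smallest p, and a likeness is the highest Pearson r among genes at a mean log2 CPM of at least 4. The genes and lists were chosen with earlier results of these data known. Replicate numbers appeared to pair libraries most for PLX against none in CON with LPS (4 of 4 pairs above a correlation of 0.1, from 0.168 to 0.663). For MIA against CON without PLX, with LPS, 2 of 4 pairs were above 0.1 (from -0.0945 to 0.638). The highest correlation of the other comparisons was 0.283, for PLX against none in MIA with LPS. A block called 0 of the 10 genes in these comparisons of MIA or PLX too.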

Additional observations from a re-analysis of the deposited data

Results flagged for a closer look

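Itgal was at 0.241 CPM in MIA_CON_SAL replicate 1, where the other 3 libraries of the group were at 0, a gap larger than the usual spread of 4 samples, and it rests on 1 count. Itga4 was at 0.659 CPM in CON_CON_SAL replicate 2, where the other 3 were at 3.51 to 4.06 CPM, and the gap was 0.836 of the range against a limit of 0.829. Chance alone passes that limit in about 1 in 20 groups, and 70 groups were examined. In the library labelled MIA_PLX_SAL replicate 1, which is marked for exclusion and used in no comparison, Itgal was at 4.67 CPM without TMM scaling, against 0 to 1.39 CPM in the saline libraries used, and Itgb2 at 265 CPM, against 179.5 to 244 CPM. That library is the one nearly identical to MIA_CON_LPS replicate 6, and whether either label is right was not tested. Along the first principal component (the direction of largest spread in log2 CPM over the 37 libraries), MIA_CON_LPS replicate 6 was at -14.8. The other LPS libraries were at 24.2 or more and the saline libraries at -57.8 or less, so it lay between them. The cause was not tested.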

How the results depend on the processing

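Itgal stayed called in all 4 arms under all 51 alternatives, with log2 changes of 4.14 to 6.95 in MIA_PLX (lowest with both marked libraries included), 5.4 to 7.16 in CON_PLX, 6.28 to 8.92 in MIA_CON and 4.36 to 5.39 in CON_CON. The number of the 10 genes called with LPS ran, with 1 library left out, from 3 to 5 in MIA_PLX (5 as reported), 3 to 4 in CON_PLX (3), 1 to 4 in MIA_CON (4) and 1 to 2 in CON_CON (2). In CON_PLX it was 5 with DESeq2, 6 with limma voom and 5 with the replicate block. In MIA_CON it was 6 with limma voom, 2 with no filter on low counts and 2 with only the groups compared, and in CON_CON it was 3 with DESeq2, 3 with limma voom, 3 without replicate number 1, 1 with RLE size factors, 1 with both marked libraries included and 1 with only the groups compared. Leaving out 1 replicate number in every group, chosen after seeing the data, gave 3 (number 3) and 3 (number 4) in MIA_PLX, 2, 1 and 2 (numbers 2, 3 and 4) in MIA_CON, and 1 and 1 (numbers 3 and 4) in CON_CON. With the replicate block, 4 genes were called in MIA_PLX, 3 in MIA_CON and 2 in CON_CON; Itga9 was called in CON_PLX (-1.31) and CON_CON (-1.36), Itga6 was called in CON_PLX (-1.08, adjusted p = 0.0227) and not in MIA_PLX (-0.98, adjusted p = 0.0793) by edgeR, and Itgb2 was not in MIA_CON (0.57) or CON_CON (0.60). The labels do not say what the numbers share. Without CON_PLX_LPS replicate 1 the Itga9 change in CON_PLX was -1.92, and without MIA_CON_LPS replicate 1 that in MIA_CON was -1.69.

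Log2 changes that turned sign were all uncalled. Itgam in CON_CON was 0.0285 with voom, 0.0397 with the marked libraries, -0.40 to 0.12 over single libraries left out and 0.10 and 0.0864 without numbers 1 and 4; in MIA_PLX it was -0.27 to 0.006 over single libraries and 0.0239 without number 2. Itgax in MIA_CON was -0.31 to 0.15 over single libraries and 0.16 without number 1. Itga4 in MIA_PLX was -0.11 with voom, -0.0781 to 0.17 over single libraries, and -0.11 and -0.0328 without numbers 4 and 5. Itgb1 in CON_CON was 0.0109 with no filter, 0.0812 with voom, 0.0581 with the marked libraries, -0.12 to 0.13 over single libraries, and 0.0132 and 0.20 without numbers 1 and 4; in CON_PLX it was -0.0753 to 0.0422 over single libraries and 0.0419 without number 6. Fermt3 in CON_CON was -0.25 to 0.0729 over single libraries and 0.0295 without number 1; in MIA_CON it was -0.0052 with RLE, -0.0011 with no filter, -0.0014 with DESeq2, -0.009 with only the groups compared, -0.0434 to 0.12 over single libraries and -0.0872 without number 3. The causes were not tested.

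With 1 library left out, the adjusted p of Icam1 in CON_CON reached 0.172, that of Itgae 0.0545 (CON_PLX), 0.149 (MIA_CON) and 0.0756 (CON_CON), that of Itgb7 0.0614 (MIA_PLX) and 0.123 (MIA_CON), that of Vcam1 in MIA_PLX 0.0665, that of Ptk2b in CON_PLX 0.0594, that of Cd37 0.106 (MIA_PLX), 0.0692 (CON_PLX) and 0.058 (CON_CON), and that of Tgfb1 0.0877 (CON_PLX) and 0.0546 (CON_CON), by edgeR. Itgal, Itgax and Itga4 are low, so their values rest on few counts.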
